A study of Mus musculus with 6 samples.

Results

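The 10 genes described here are 4 receptors of the fibroblast growth factor (FGF) family, Fgfr1, Fgfr2, Fgfr3 and Fgfrl1, and 6 FGF ligands made by fibroblasts or acting on them, Fgf1, Fgf2, Fgf5, Fgf7, Fgf10 and Fgf18. They were chosen by name, and all 10 were found by Ensembl identifier among the 56953 genes of the table. The study asked what loss of the G protein subunit Gαq does to fibroblasts of the tumor stroma in oral cancer. It sequenced poly-A RNA of mouse embryonic fibroblasts (MEFs), connective tissue cells grown from embryos, with 3 libraries of wild-type (WT) cells and 3 labelled GαqKO, described as biological replicates. The WT group carried no named alteration. The GαqKO group came from cells that the paper describes as lacking both Gαq and the related subunit Gα11. All cells grew in DMEM with 10% serum and no other treatment is named. No source used here names more than one line of each genotype, so line and genotype cannot be told apart, and the spread between libraries covers cultures of a line and not independent derivations.

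FGFs are secreted proteins that bind receptor tyrosine kinases on the cell surface together with heparan sulfate, a sulfated sugar chain carried by syndecans and glypicans. The receptors signal through the adaptor FRS2 to the RAS and ERK pathway, which turns on ETV transcription factors and the Sprouty and DUSP proteins that damp the signal. In many organs mesenchymal cells secrete FGF7 and FGF10, which act on the epithelial splice form of FGFR2, while fibroblasts themselves carry mainly FGFR1 and the mesenchymal splice forms. FGFRL1 binds FGFs but lacks the kinase domain.

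Values are normalized counts, which are the reads of a gene divided by 1 size factor per library. Recovered totals ran from 9853000 to 12229175 reads in 5 libraries, and the normalized totals of all 6 ran from 11392429 to 11483486. Differences were tested with limma on log2(normalized count + 1) which took in the 14096 genes that reached 10 normalized counts in 3 or more libraries. Its p-values were adjusted by the Benjamini-Hochberg method. A gene is called higher where its log2 fold change exceeds 1, and lower where it is under -1, provided the adjusted p is under 0.05. Gnaq, the gene of Gαq, had 1665, 1660.2 and 1747 normalized counts in WT replicates 1, 2 and 3, and 1959.7, 1931 and 1888 in the libraries labelled GαqKO. Gna11, the gene of Gα11, averaged 2148 ± 29.0 in WT and 451.6 ± 28.7 normalized counts in those labelled GαqKO (SD, n = 3 each). The transcript of the gene in the label was therefore not lower, whole-gene counts do not show whether it is intact, and all directions below follow the labels.

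Of the 10 genes, 7 passed the filter on low values. In the libraries labelled GαqKO, 2 of these were called higher, Fgfr1 and Fgf10, and 3 were called lower, Fgfr3, Fgf5 and Fgf18. Over all genes tested, 10.2% were called higher and 10.5% lower, or 20.7% in either direction. The same 5 genes were those whose groups did not overlap, as 69.6% of all genes tested did not. With Fgfr2 added, 6 of the 7 passed the adjusted p alone, as did 65.8% of all genes tested. The remaining tested genes, Fgfr2 and Fgfrl1, changed by less than the fold threshold. The median log2 fold change was -0.0122 over all genes tested, so the changes were centred near 0, while their median size was 0.39. The change of Fgf5 was larger in size than that of 98.1% of all genes tested, the change of Fgf10 larger than that of 97.1%, and the change of Fgfrl1 larger than that of 9.22%. Because these are bulk libraries, fewer cells that express a gene and less RNA per cell cannot be told apart.

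**Figure D1:**
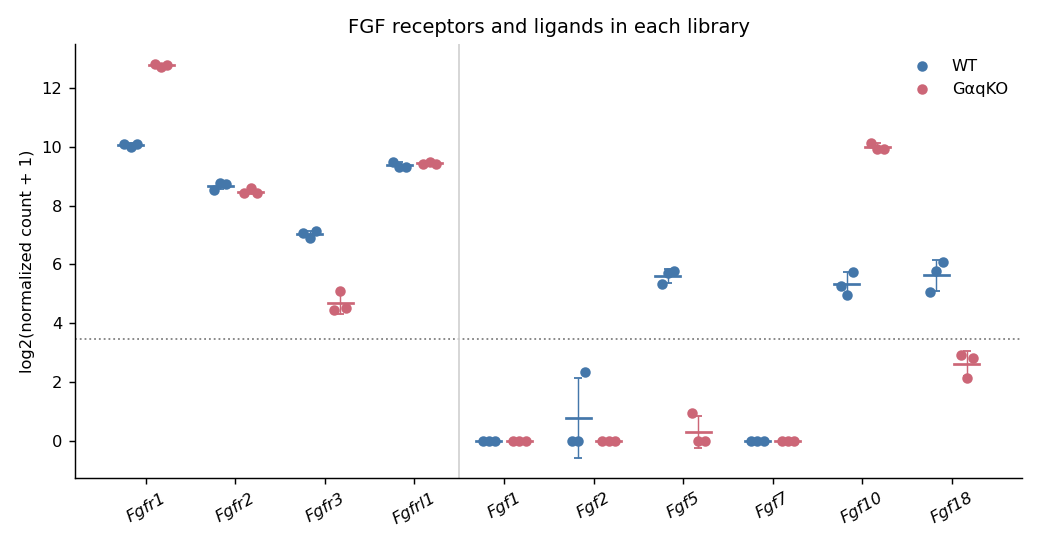
The vertical axis gives log2(normalized count + 1) for each of the 10 genes, with receptors left and ligands right of the grey line. Points are single libraries of WT and GαqKO (3 each), bars and whiskers are the mean and SD of the log2 values, and the dotted line marks 10 normalized counts. The 2 groups lie apart for Fgfr1, Fgfr3, Fgf5, Fgf10 and Fgf18, and Fgf1 and Fgf7 are listed at 0 in every library.

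The stretches just upstream of the 3 ligand genes with called changes are shown because these genes moved in opposite directions. They are the 250 bases before the RefSeq start of each gene on build GRCm38.p6, a different build from that of the table, read 5′ to 3′ on the strand of the gene, with CpG dinucleotides in capitals. Fgf10 lies at chr13:118714449-118714698 on the plus strand, Fgf5 at chr5:98253934-98254183 on the plus strand and Fgf18 at chr11:33147401-33147650 on the minus strand.
Fgf10: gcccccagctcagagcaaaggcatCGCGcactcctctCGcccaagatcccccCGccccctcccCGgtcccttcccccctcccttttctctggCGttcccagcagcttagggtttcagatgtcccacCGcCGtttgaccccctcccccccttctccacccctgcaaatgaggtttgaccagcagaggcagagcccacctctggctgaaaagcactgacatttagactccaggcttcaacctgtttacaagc
Fgf5: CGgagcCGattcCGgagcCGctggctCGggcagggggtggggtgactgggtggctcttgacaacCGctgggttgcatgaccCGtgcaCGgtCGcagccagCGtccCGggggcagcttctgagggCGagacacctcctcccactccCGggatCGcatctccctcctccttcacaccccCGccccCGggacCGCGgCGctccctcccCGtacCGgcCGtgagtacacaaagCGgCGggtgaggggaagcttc
Fgf18: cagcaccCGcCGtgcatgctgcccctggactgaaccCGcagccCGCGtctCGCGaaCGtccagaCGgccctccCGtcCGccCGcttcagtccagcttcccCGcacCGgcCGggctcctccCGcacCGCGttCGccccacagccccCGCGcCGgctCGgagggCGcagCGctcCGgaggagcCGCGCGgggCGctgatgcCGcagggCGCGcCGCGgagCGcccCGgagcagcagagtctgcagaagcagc

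The Fgf10 stretch, upstream of the ligand that was higher in the libraries labelled GαqKO, held 8 CpG dinucleotides at a GC content of 61.2%. Those of the ligands that were lower held more, with 24 at 70.8% for Fgf5 and 37 at 77.2% for Fgf18. The median over 32851 RefSeq promoters was 6 CpG dinucleotides and a GC content of 52.4%. Fewer CpG than in the stretch named were found in 57.0% of promoters for Fgf10, 88.0% for Fgf5 and 97.8% for Fgf18. Each of the 3 held a single match to GGGCGG, the GC box, on either strand, as 32.7% of all promoters did with at least 1, and such a match itself contains a CpG. None held TATAAA (12.4% of promoters), CCGGAAG, an ETS factor motif (6.91%), or TGANTCA, an AP-1 motif (6.75%), in this window. Of the 10 genes, 8 have an entry in the promoter table. Among the receptors, Fgfrl1 held 30 CpG dinucleotides at a GC content of 73.6% and Fgfr2 held 2 at 44%, and neither gene was called. The stretches listed for Fgfr3, which was called lower, held 19 and 24. Whether CpG content goes with the direction of change was not tested.

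Fgfr1 (ENSMUSG00000031565.19; GRCm39 chromosome 8, 26003670 to 26066824, plus strand) encodes the main FGF receptor of mesenchymal cells. It had 1092, 1022 and 1089 normalized counts in WT replicates 1, 2 and 3, and 7215, 6730 and 6948 in the libraries labelled GαqKO. Every value of the second group was above every WT value, and within each group the SD was under 4% of the mean (3.72% and 3.49%). The mean rose 6.52-fold, from 1068 ± 39.7 to 6964 ± 242.9 normalized counts (SD, n = 3 each). On the log2 scale this is 2.70 ± 0.046 (standard error; adjusted p = 1.87e-14, limma).

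Fgfr3 (ENSMUSG00000054252.19; chromosome 5, 33879018 to 33894412, plus strand), a receptor best known from the growth plate of bone, moved the other way. The WT libraries had 132.6, 119.5 and 139.4 normalized counts and those labelled GαqKO 20.7, 33.5 and 22.2. The groups did not overlap, and the mean was 5.13-fold lower, falling from 130.5 ± 10.1 to 25.4 ± 7.04 normalized counts (SD, n = 3 each). limma put the log2 fold change at -2.34 with a standard error of 0.21 (adjusted p = 3.14e-07). Exons of the antisense-strand gene G630022F23Rik cover 13.1% of the exonic bases of Fgfr3, and that gene averaged 0.35 normalized counts in WT and was listed at 0 in GαqKO. In turn 55.0% of the exonic bases of G630022F23Rik lie within Fgfr3, so its low values cannot be read as absence.

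Fgfr2 (ENSMUSG00000030849.19; chromosome 7, 129763471 to 132725079, minus strand), the receptor whose epithelial splice form binds FGF7 and FGF10, had 369.6, 429.4 and 428.5 normalized counts in WT against 342.7, 381.6 and 339.4 in GαqKO. The ranges overlap, since GαqKO replicate 2 lies above WT replicate 1. The log2 fold change, -0.20 ± 0.085 (standard error), had an adjusted p of 0.0481 in limma, which missed 0.05 in 10 of 15 alternative analyses, where the adjusted p reached 0.361. The difference is therefore not separated from the spread between libraries. The table counts whole genes and does not tell the splice forms of the receptors apart. The annotated span of Fgfr2 reaches Ctbp2 on the same strand, and exons of Ctbp2 cover 2.77% of the exonic bases of Fgfr2. In turn 93.8% of the exonic bases of Ctbp2 lie within Fgfr2. Ctbp2 averaged 17.2 ± 2.92 normalized counts in WT and 27.1 ± 6.93 in GαqKO (SD, n = 3 each). What this overlap does to the counts of either gene was not tested.

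Fgfrl1 (ENSMUSG00000008090.15; chromosome 5, 108840206 to 108858366, plus strand), the receptor without a kinase domain, had 715.3, 635.3 and 638.2 normalized counts in WT. The libraries labelled GαqKO had 683.6, 719.2 and 675.7. These ranges overlap, and the log2 fold change, 0.07 ± 0.065 (standard error), did not pass the test (adjusted p = 0.392, limma).

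To compare receptors with each other, values were divided by exon length and are given as normalized counts per kilobase. This takes exons as the counted length, which the sources used here do not state. In WT, Fgfrl1 stood highest at 93.6 ± 6.40 per kilobase, followed by Fgfr1 at 83.6 ± 3.11, Fgfr2 at 36.1 ± 3.02 and Fgfr3 at 14.8 ± 1.15 (SD, n = 3 each). The place of Fgfrl1 above Fgfr1 in WT rests on this division, since undivided they averaged 662.9 and 1068 normalized counts. In GαqKO the order was Fgfr1 at 545.2 ± 19.0, Fgfrl1 at 97.8 ± 3.27, Fgfr2 at 31.3 ± 2.07 and Fgfr3 at 2.88 ± 0.80 per kilobase. No neighbours among the receptors overlapped in these ranges within either group.

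The summed level of the 4 receptors was 228.1 ± 6.55 per kilobase in WT and 677.2 ± 14.8 in GαqKO (SD, n = 3 each). Fgfr1 made up 36.6 ± 0.54% of that sum in WT and 80.5 ± 1.21% in GαqKO. The share of Fgfrl1 went from 41.0 ± 1.93% to 14.5 ± 0.70%, although its own level did not pass the test. Fgfr2 went from 15.9 ± 1.70% to 4.62 ± 0.38% of the sum and Fgfr3 from 6.48 ± 0.39% to 0.43 ± 0.13%. Per kilobase, Fgfr1 exceeded Fgfr2 by 2.33 ± 0.26 times in WT and 17.5 ± 1.62 times in GαqKO. None of the shares or ratios overlapped between groups, but a two-sided exact permutation test of 3 against 3 cannot give a p under 0.1, which is what each gave.

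**Figure D2:**
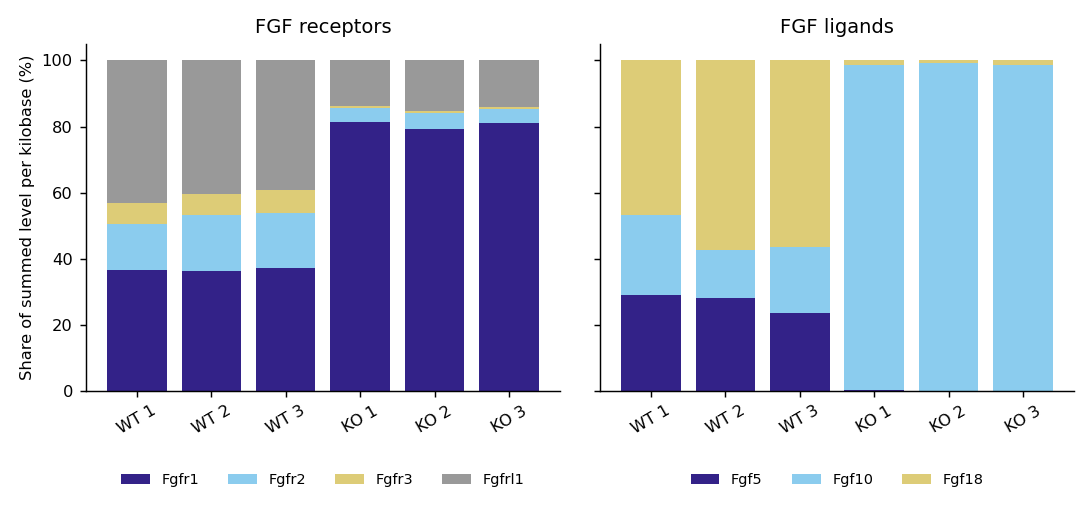
Each bar is 1 library and splits the summed level per kilobase (100%) of the 4 receptors (left) and of the 3 ligands that passed the filter (right). Fgfr1 makes up 36.2 to 37.2% of the receptor sum in WT and 79.1 to 81.4% in GαqKO (KO), and Fgf10 makes up 14.5 to 24.2% of the ligand sum in WT and 98.6 to 99.2% in GαqKO.

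Fgf10 (ENSMUSG00000021732.15; chromosome 13, 118806327 to 118928672, plus strand), the mesenchymal ligand needed for limb and lung buds, had 37.6, 30.1 and 52.9 normalized counts in WT. In the libraries labelled GαqKO it had 1124, 979.3 and 977.8. The lowest of these values was far above the highest WT value, and the mean rose 25.5-fold, from 40.2 ± 11.6 to 1027 ± 84.0 (SD, n = 3 each). limma put the log2 fold change at 4.68 with a standard error of 0.16 (adjusted p = 1.84e-11). The span of the opposite-strand gene Gm16263 holds 21.9% of the exonic bases of Fgf10, and Gm16263 was listed at 0 in every library. All exonic bases of Gm16263 lie in turn within Fgf10, so that 0 cannot be read as absence.

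Fgf5 (ENSMUSG00000029337.3; chromosome 5, 98401780 to 98452320, plus strand), the ligand that ends the growth phase of hair, had 39.7, 51.5 and 53.9 normalized counts in WT. The libraries labelled GαqKO had 0.94, 0 and 0, where 0.94 stands for a single read. Over the 5 libraries with recovered reads, 144 reads in WT stood against 1 in GαqKO, a ratio of 93.6 with a 95% exact interval from 16.5 to 3722 that covers counting error only. The log2 fold change fitted by limma, -5.29 ± 0.44 (standard error; adjusted p = 1.44e-07), depends on the pseudocount and was -3.32 with a pseudocount of 5.

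Fgf18 (ENSMUSG00000057967.13; chromosome 11, 33067014 to 33097828, minus strand), a ligand of cartilage and bone growth, had 32.4, 53.4 and 66.2 normalized counts in WT and 6.57, 3.47 and 6.04 in GαqKO. The groups did not overlap, although the SD was 33.7% of the mean in WT. The mean was 9.45-fold lower, falling from 50.7 ± 17.1 to 5.36 ± 1.66 (SD, n = 3 each), and limma put the log2 fold change at -3.00 with a standard error of 0.36 (adjusted p = 5.42e-06).

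The summed level of Fgf5, Fgf10 and Fgf18 was 31.4, 42.1 and 53.1 normalized counts per kilobase in WT replicates 1, 2 and 3, and 230.6, 199.7 and 200.6 in GαqKO. WT replicate 3 held the highest value of each of the 3 ligands. Per kilobase, Fgf18 led in WT at 22.9 ± 7.73, with a range that overlaps that of Fgfr3, and Fgf5 at 11.1 ± 1.75 overlapped Fgf10 at 8.14 ± 2.35 (SD, n = 3 each). In GαqKO, Fgf10 stood at 207.8 ± 17.0 per kilobase, between Fgfr1 and Fgfrl1, whereas Fgf18 at 2.43 ± 0.75 overlapped Fgfr3. The share of Fgf10 in the ligand sum was 19.6 ± 4.91% in WT and 98.8 ± 0.34% in GαqKO, and that of Fgf18 was 53.5 ± 5.93% and 1.15 ± 0.31% (exact permutation p = 0.1, the smallest 3 against 3 allows). Set against Fgfr2 as a whole gene, Fgf10 stood at 0.23 ± 0.06 times the level per kilobase in WT and 6.67 ± 0.82 times in GαqKO. The epithelial splice form of Fgfr2, which binds FGF10, was not told apart, and Fgfr2 itself was not called.

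**Figure D3:**
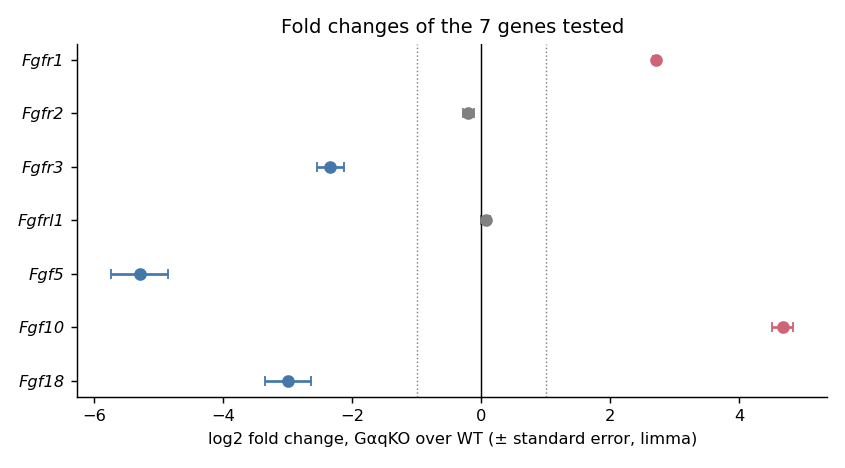
The horizontal axis gives the log2 fold change of GαqKO over WT for the 7 genes tested, with whiskers for the standard error of limma (3 libraries each). Dotted lines mark the thresholds of 1 and -1, red points are called higher, blue points lower and grey points neither. Fgf10 (4.68) and Fgfr1 (2.70) lie right, and Fgf5 (-5.29), Fgf18 (-3.00) and Fgfr3 (-2.34) left, of the thresholds.

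The remaining 3 ligands were not tested because they failed the filter. Fgf1 (ENSMUSG00000036585.17; chromosome 18), which binds every FGF receptor, and Fgf7 (ENSMUSG00000027208.15; chromosome 2, 125876578 to 125934218, plus strand), the keratinocyte growth factor, were listed at 0 in all 6 libraries. Fgf2 (ENSMUSG00000037225.14; chromosome 3, 37402473 to 37464257, plus strand), or basic FGF, was listed at 0 in 5 libraries and had 4.07 normalized counts in WT replicate 3.

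A listed 0 cannot be read as absence for Fgf7 and Fgf2, whose exons lie inside the spans of other genes. All exonic bases of Fgf7 lie within introns of Fam227b on the opposite strand, and none lie on its exons. All exonic bases of Fgf2 lie within the spans of Nudt6, Fgf2os and Gm43439, and 44.9% lie on exons of these genes. Among the 541 protein-coding genes placed like Fgf7, 84.3% were listed at 0 in every library, and 65.0% of the 1066 placed like Fgf2. Where no exon lay inside another gene, 25.2% of 11516 were. For Fgf1, 26.0% of the exonic bases lie in the span of Gm5820 and none on its exons.

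The genes around them had reads. Fam227b averaged 21.2 ± 2.99 normalized counts in WT and 92.1 ± 12.2 in GαqKO, a 4.35-fold rise (log2 fold change 2.07, adjusted p = 1.12e-06, limma). Nudt6, which shares exonic sequence with the end of Fgf2 on the opposite strand, went from 40.1 ± 3.45 to 77.2 ± 11.7 (log2 fold change 0.92, adjusted p = 0.000838, limma). Gm43439, on the strand of Fgf2, went from 13.1 ± 0.54 to 35.3 ± 12.0 normalized counts (SD, n = 3 each). Its log2 fold change was 1.30 (adjusted p = 0.00209, limma). The sources used here give neither the strand setting nor whether reads were counted over exons or whole gene spans. Reads of Fgf2 or Fgf7 and of these genes therefore cannot be told apart.

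**Figure D4:**
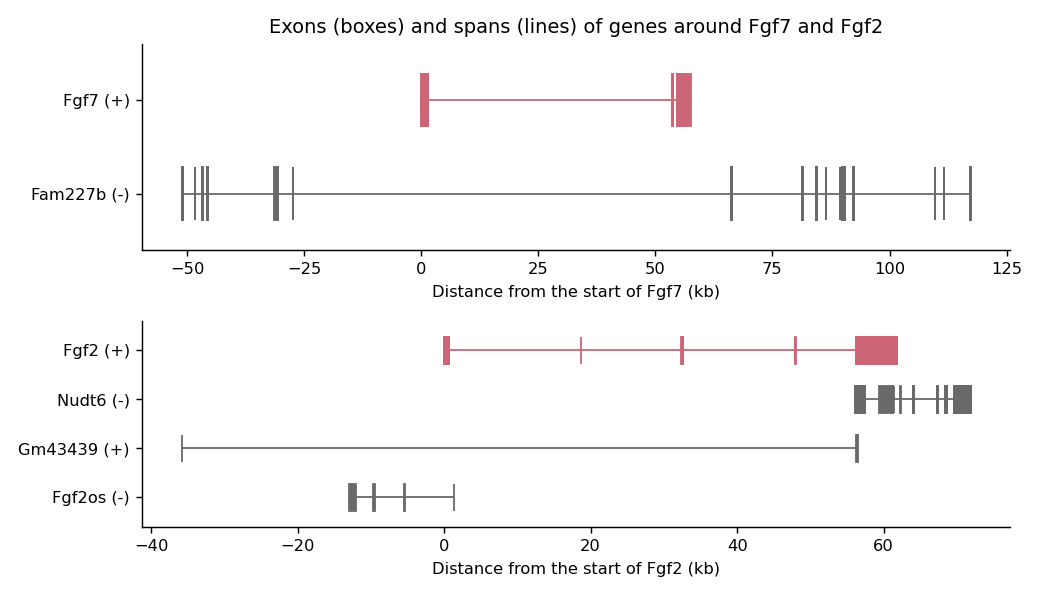
The horizontal axes give the distance in kb from the start of Fgf7 (top) and Fgf2 (bottom) along the plus strand of GRCm39, with boxes for annotated exons, lines for gene spans and the strand in brackets. Fgf7 sits between exons of Fam227b without touching them, and the last exon of Fgf2 meets exons of Nudt6 and Gm43439.

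Around the 10 genes, lists of related genes were examined by role. Of 17 other FGF genes, Fgfr4 included, 4 passed the filter, and 1 was called higher and 1 lower (10.2% and 10.5% of all genes tested), with a median log2 fold change of 0.41 against -0.0122 over all genes tested. Fgf9, a secreted ligand, had 0, 0 and 3.05 normalized counts in WT and 124.0, 122.6 and 122.9 in GαqKO. Over the 5 libraries with recovered reads these were 3 reads against 238, a ratio of 122.1 with a 95% exact interval from 41.3 to 596.2 (counting error only). Fgf13, whose protein stays inside the cell and binds sodium channels, fell from 539.6 ± 49.5 to 5.41 ± 4.32 normalized counts (log2 fold change -6.59, adjusted p = 8.79e-10, limma). Fgfr4 stayed at 2.09 normalized counts or less in every library and was not tested.

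Of 23 co-receptors and binding proteins, 16 were tested. On the adjusted p alone 6 were higher and 8 lower, against 31.8% and 34.1% of all genes tested. Of these, 2 and 3, respectively, also passed the fold threshold, beside 10.2% and 10.5% of all genes tested. The median log2 fold change was -0.16. Flrt2, a membrane protein of a family that binds FGF receptors, rose 4.32-fold from 302.1 ± 43.9 to 1306 ± 68.4 normalized counts. Sdc3, a syndecan, rose 3.09-fold from 43.5 ± 5.11 to 134.6 ± 5.21. Gpc1, a glypican, was 3.67-fold lower, at 2167 ± 91.2 in WT and 589.7 ± 31.9 in GαqKO, and 58.1% of its exonic bases lie within other genes' spans. Fgfbp3, which carries FGFs away from the matrix, was 3.13-fold lower, at 96.8 ± 17.4 and 30.9 ± 2.67 normalized counts (SD, n = 3 each).

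Enzymes that build, sulfate or trim heparan sulfate were measured in 18 of 23 cases. Of these, 4 were called higher and 5 lower, beside 10.2% and 10.5% of all genes tested. On the adjusted p alone 6 were higher and 11 lower, beside 31.8% and 34.1%, with a median log2 fold change of -0.46. The sulfatases Sulf1 and Sulf2, which remove sulfate groups from the chains outside the cell, fell to near the counting floor. Sulf1 had 435.4, 392.5 and 441.7 normalized counts in WT and 5.63, 4.62 and 1.01 in GαqKO (log2 fold change -6.65, adjusted p = 1.58e-09, limma). Sulf2 had 640.1, 697.5 and 635.1 in WT and 4.70, 5.78 and 10.1 in GαqKO (log2 fold change -6.45, adjusted p = 1.88e-11, limma). No value of either sulfatase in GαqKO came near those of WT.

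Among the sulfotransferases, the 3-O enzyme gene Hs3st3a1 fell from 153.6 ± 3.65 to 2.07 ± 0.22 normalized counts and the 6-O enzyme gene Hs6st3 from 150.6 ± 7.07 to 29.3 ± 6.44 (SD, n = 3 each). Hs3st1, another 3-O enzyme gene, rose 6.74-fold from 14.8 ± 2.28 to 99.7 ± 18.2. The N-sulfotransferase gene Ndst3 rose 11.6-fold, from 25.7 ± 6.52 to 297.0 ± 21.2, and Ndst2 rose 2.12-fold, from 399.8 ± 29.0 to 849.3 ± 39.04. Hpse, the gene of heparanase, which cuts the chains, rose 2.84-fold from 33.6 ± 8.11 to 95.4 ± 4.66, and 51.7% of its exonic bases lie within other genes' spans.

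All 25 genes of the signalling step next to the receptors were tested, among them the adaptors Frs2 and Grb2. The adjusted p alone was passed by 3 that were higher and 18 that were lower, beside 31.8% and 34.1% of all genes tested. Past the fold threshold 1 was called higher, Grb14, and 0 lower, beside 10.2% and 10.5%, and the median log2 fold change was -0.26. Grb14, an adaptor that binds activated receptors, rose 4.33-fold from 97.2 ± 17.6 to 421.4 ± 31.0 normalized counts (log2 fold change 2.12, adjusted p = 5.92e-09, limma).

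Of 13 feedback and target genes of FGF and ERK signalling that were in the table, all were tested, and 4 were called higher and 1 lower, beside 10.2% and 10.5% of all genes tested. On the adjusted p alone these were 9 and 3, beside 31.8% and 34.1%, and the median log2 fold change was 0.32. The 3 ETV transcription factor genes of the PEA3 group rose together. Etv1 had 13.6, 18.5 and 10.2 normalized counts in WT and 517.4, 485.6 and 454.2 in GαqKO, a 34.5-fold rise (log2 fold change 5.05, adjusted p = 5.00e-11, limma). Etv5 rose 4.17-fold from 131.4 ± 3.76 to 548.4 ± 50.7, and Etv4 rose 3.54-fold from 865.8 ± 22.0 to 3067 ± 89.1 (SD, n = 3 each). The Sprouty genes split, with Spry4 rising 7.02-fold from 51.5 ± 4.09 to 361.5 ± 38.7 and Spry1 falling from 126.0 ± 9.37 to 51.4 ± 7.32, which is 2.45-fold lower. Dusp6, a phosphatase of ERK named here for its standing as an FGF target after its value was seen, was lower by limma, at -0.52 ± 0.050 on the log2 scale (standard error; adjusted p = 6.26e-07).

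**Figure D5:**
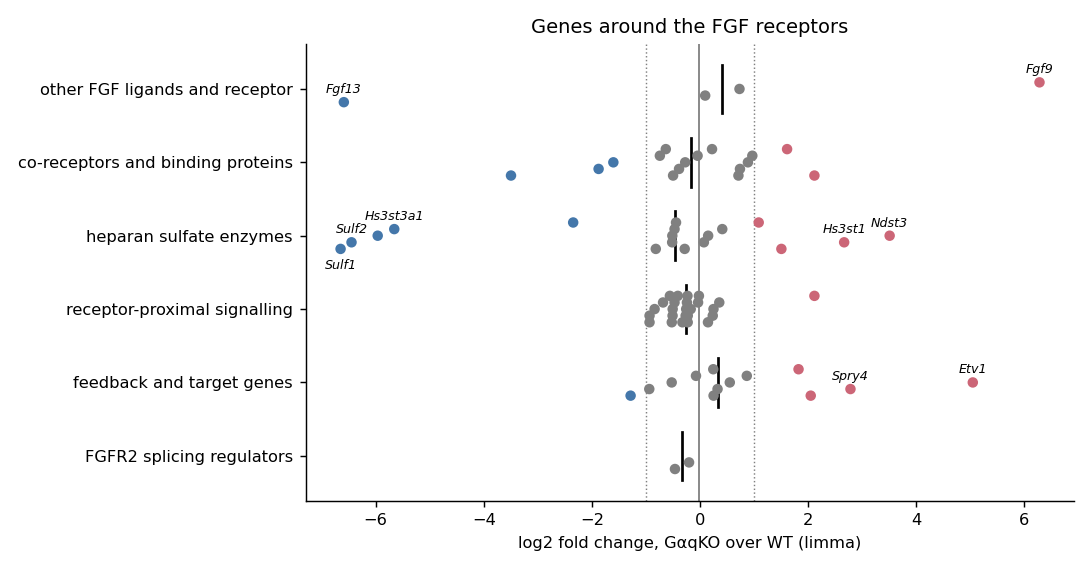
Each point is a tested gene of the list named at left, placed by its log2 fold change of GαqKO over WT. Black bars are list medians, the grey line is the median of all genes tested (-0.0122), dotted lines mark 1 and -1, and red and blue points are called higher and lower. The list medians lie between -0.46 and 0.41, while single genes such as Fgf9, Etv1, Fgf13, Sulf1 and Sulf2 lie far outside.

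Markers of cell types moved with the groups. Of 9 epithelial markers 3 were tested and 2 were called lower, Cdh1 and Krt14, beside 10.5% of all genes tested. The other tested marker, Grhl2, had 3.89 to 17.3 normalized counts in WT and 11.3 to 24.3 in GαqKO. Its log2 fold change was 1.13 and it was not called (adjusted p = 0.0539, limma). The summed level of the list was 533.4 to 552.4 normalized counts in WT, mostly Cdh1 and Krt14, and 28.2 to 49.7 in GαqKO. Krt8 had 7.12 to 30.1 normalized counts in WT and 0 to 1.16 in GαqKO, and Krt18 had 9.16 to 18.8 and 0 to 1.88, both under the filter. The defining marker Epcam had 1.02 to 5.22 in WT and 2.82 to 8.09 in GαqKO, and Krt5 had at most 0.97 in any library. Of 14 fibroblast markers 13 were tested, 5 called higher and 1 lower, beside 10.2% and 10.5% of all genes tested. On the adjusted p alone 7 were higher and 6 lower, beside 31.8% and 34.1%. The one called lower was Col1a1, which fell from 16671 ± 1168 to 5774 ± 272.1 normalized counts (SD, n = 3 each). Col1a2, Vim and Fn1 were also lower on the adjusted p alone (log2 fold changes of -0.36, -0.32 and -0.73), and these 4 had at least 5461 normalized counts in every library. The fibroblast markers Pdgfra (17.5 to 21.9 normalized counts), Dcn (30.1 to 35.5) and Thy1 (0 to 2.09) were low in WT and stood at 2274 to 2356, 1604 to 1710 and 59.0 to 76.5 in GαqKO, and Lum was listed at 0 in every WT library. The sum of the 6 neural and glial markers, mostly Nes, was 7670 to 8162 normalized counts in WT and 1020 to 1054 in GαqKO. The summed endothelial markers were at 12.6 to 25.4, the skeletal muscle markers at 14.2 to 28.2 and the macrophage markers at 70.4 to 120.5 normalized counts over the 6 libraries. The part of cell makeup in the changes of the FGF genes was not tested.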

How the data were processed

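RNA of 6 MEF libraries, 3 WT and 3 GαqKO, was sequenced as poly-A selected, paired-end libraries. Per the paper's methods, the authors aligned reads with Rbowtie2 to GRCm39, assigned them to genes with featureCounts (GENCODE mouse release 32) and used DESeq2. Versions, strand setting, filters and whether exons or whole gene spans were counted are not given in the sources used here. The deposited values are a signal, that is, gene counts after division by the size factor of each library. A count test had been planned as the main test, and limma replaced it for this reason. Reads could be recovered as whole numbers in 5 libraries, where they ranged from 9853000 to 12229175, and these served for edgeR and DESeq2 as alternatives.

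Names, coordinates and exon lengths came from GENCODE mouse release 39 on GRCm39, which matched 56310 of 56953 identifiers and left 643 unmatched. limma, with its trend option, was fitted to log2(normalized count + 1) for genes that reached 10 normalized counts in 3 or more libraries. Fold changes on this scale understate changes of low genes. The floor was 3 counts per library, and floors and intervals cover counting error only. Shares used normalized counts per kilobase of exon and two-sided exact permutation tests.

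The genes and lists were chosen with earlier results of these data known. Named were the 10 FGF genes, Gnaq and Gna11, genes overlapping the exons of the 10, and per list up to 4 genes in each direction with the largest fold change among those called whose mean reached 50 normalized counts. Dusp6, Fgfr4 and the markers were named outside this rule. Alternatives were TMM scaling, pseudocounts of 0.5 and 5, other filters, a replicate block, the prior spread, the count tests, levels not divided by length and each library left out. The fitting script was tested on simulated data. Same-numbered libraries did not deviate together. DESeq2 1.42.0, edgeR 4.0.16 and limma 3.58.1 were run in R 4.3.3, and Python 3.11.15 with numpy 2.4.6, pandas 2.3.3, scipy 1.17.1 and matplotlib 3.10.9.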

Additional observations from a re-analysis of the deposited data

How the results depend on the processing

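The directions of Fgfr1, Fgfr3, Fgf5, Fgf10 and Fgf18 and their side of the threshold held under every alternative that gave them a value. The log2 fold change of Fgfr1 ranged from 2.67 to 2.73 over 15 alternatives, that of Fgf10 from 4.49 to 4.89 and that of Fgfr3 from -2.55 to -2.18. Fgf5 ranged from -6.54 to -3.32 and Fgf18 from -3.30 to -2.39 over 14, being dropped where each library had to reach 10 normalized counts. That filter, by its construction, removes genes low in either group. It left 1 of the 10 genes lower, none of the other FGF genes higher or lower (0 each), and 1 heparan sulfate enzyme lower. With each library left out, 2 of the 10 genes stayed higher and 3 lower, and 5 to 6 passed the adjusted p. The higher co-receptors then ranged from 2 to 4 (4 without WT replicate 1), and the lower receptor-proximal genes from 0 to 1 (1 without WT replicate 1, WT replicate 3 or GαqKO replicate 1). The cause was not tested. Not divided by length, the rise in the Fgfr1 share was 39.6 percentage points in place of 43.9, and that in the Fgf10 share 70.4 in place of 79.2. With a replicate block, 5 genes passed the adjusted p, since Fgfr2 missed it (adjusted p = 0.0503, limma), and no other call of the 10 genes and no count of the lists changed. The numbers do not pair the libraries, with correlations of same-numbered deviations of -0.045, -0.148 and -0.064. Depth limits what can be said of Fgf5 in GαqKO, where 1 read was counted, and of Fgf9 in WT.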

Other observations

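The regulators that set the splice form of Fgfr2 were also measured. Esrp1 and Esrp2, which drive the epithelial form that binds FGF7 and FGF10, were under the filter, with at most 4.86 and 9.71 normalized counts in any library. Rbfox2, another regulator of that exon, averaged 4879 ± 225.4 normalized counts in WT and 4237 ± 48.3 in GαqKO (SD, n = 3 each), with a log2 fold change of -0.20 (adjusted p = 0.000981, limma). Ptbp1, which represses the epithelial exon, had a log2 fold change of -0.46 (adjusted p = 1.00e-05, limma). Both were lower in 3 of 3 libraries labelled GαqKO than in any WT library, and neither passed the fold threshold. Over all genes tested, the groups did not overlap for 69.6%, and 34.1% were lower on the adjusted p alone. For Ptbp1, 66.3% of the exonic bases lie within other genes' spans, and for Esrp2 56.6%. The low values of Esrp2 therefore cannot be read as absence.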
